A study of Drosophila melanogaster with 9 samples.

Results

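Larvae without any working copy of Atg6 (genotype Atg6-/-, allele Atg6D, here homozygotes) were compared with larvae that had already lost 1 copy (Atg6-/+, here heterozygotes), the step from 1 copy to 0. The 3 libraries of each genotype were taken by their labels, 6 of the 9 libraries in the series, and all genes at an FPKM of at least 1 in at least 3 of the 9 libraries were described, which kept 10887 of 15809 loci. FPKM counts sequenced fragments per kilobase of transcript and adjusts them for the size of the library. Every library held RNA of whole wandering larvae at the final larval stage, of the w118 background, raised at 25C on standard food. The other 3 libraries, from w118 larvae with 2 wild type copies, are given beside the values as levels. They also counted in the expression filter and in the shared spread behind the p-values. Both groups compared carry the mutant allele, so the homozygotes may also carry 2 copies of other variants on the mutant chromosome. The loss of Atg6 cannot be told apart from such variants or from a difference in larval age. The labels name neither the lesion nor the number of larvae in a library, and do not say that replicates came from separate cultures, so p-values measure only the spread between these libraries.

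Atg6, the fly Beclin, belongs to a protein complex built around the lipid kinase Pi3K59F (Vps34). That complex marks membranes for the start of autophagosome formation and for sorting through endosomes, and Atg14 and Uvrag are the partner subunits that direct it to either task. In flies, loss of Atg6 is known from earlier work to disturb blood cell formation as well as autophagy, and fly blood cells, or haemocytes, are the phagocytic plasmatocytes, the melanizing crystal cells and the lamellocytes, flat adhesive cells that appear in wounded or parasitized larvae.

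The files give no counts, so absolute depth is unknown, and depth relative to the first wild type library ran from 0.787 to 1.28. Larval tissues were present in all libraries, with the glue gene Sgs7 between 3035 and 52645 FPKM. The heterozygote libraries correlated with each other at 0.977 to 0.990 and the homozygotes at 0.922 to 0.972, and the median standard deviation (SD) of a gene on the log2(FPKM + 1) scale was 0.126 in heterozygotes and 0.225 in homozygotes. The 10 highest loci held 23.4 to 23.8% of the summed FPKM in heterozygotes and 10.8 to 16.7% in homozygotes, while factors that align the typical gene between libraries stayed between 0.989 and 1.01.

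Atg6 RNA was almost absent from the homozygotes. The 3 heterozygote libraries had FPKM of 7.58, 7.98 and 8.89, the homozygotes 0.0270, 0 and 0.0563, and the wild types 16.1, 14.3 and 17.0. The 3 groups did not overlap, and the labels and the RNA of the gene went together in each library (log2 fold change −3.15, SE 0.10, adjusted p = 8.1e-06, limma with Benjamini-Hochberg adjustment, as for all adjusted p-values here). The gene lies at 3R:24049180-24050782 (dm6) on the minus strand. Of the 11 other loci tested within 20 kb, its flanking neighbours rose. CG5991 (Pisd), which makes a mitochondrial enzyme of phosphatidylethanolamine synthesis and starts beside Atg6 on the opposite strand, had FPKM of 20.9, 19.7 and 21.5 in heterozygotes and 40.5, 34.6 and 35.1 in homozygotes, with the wild types at 11.5, 12.6 and 12 (log2 fold change 0.80, SE 0.08, adjusted p = 0.00141). CG5986, on the other flank, had 57.5, 58.3 and 56.5 and 83.5, 86.7 and 81.0 against 34.9, 36.4 and 37.8 in the wild types (log2 fold change 0.54, SE 0.07, adjusted p = 0.00372), a call lost under quantile normalization. Each of these neighbours was lowest in the wild types and highest in the homozygotes with no overlap between groups. The step from wild type to heterozygote, which passed the test in 0.211% of loci, did so for CG5991 (log2 fold change 0.74, SE 0.08, adjusted p = 0.0179) and CG5986 (log2 fold change 0.65, SE 0.07, adjusted p = 0.0177). The other 9 loci in that window did not pass, among them the heat shock gene Hsp68 at 26.7, 20.9 and 24.4 and 22.3, 10.7 and 23.3 FPKM (log2 fold change −0.41, adjusted p = 0.393).

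Among the loci called across the genome, more were higher than lower in homozygotes. At an adjusted p under 0.05, 838 loci were called, 7.7% of those tested, of which 683 were higher in homozygotes (6.27% of loci tested) and 155 lower (1.42%). Of the loci tested, 172 passed the expression filter only through the homozygotes, which favoured a rise for them. A change of at least 2-fold was reached by 232 of the higher loci (2.13%) and 71 of the lower (0.652%), and the median size of a called change was 0.76 (log2) for rises and 0.95 for falls. The libraries did not overlap in 1906 loci with homozygotes higher (17.5%) and 1693 with homozygotes lower (15.6%). Unadjusted p-values under 0.05 were reached by 26.2% of loci, and the median log2 fold change over all loci was −0.02. Of the calls, 281 of the higher and 87 of the lower loci carry only CG or CR numbers as names. The counts depended on single libraries: leaving out heterozygote 2 left 257 rises and 46 falls, heterozygote 3 left 293 and 44, heterozygote 1 left 370 and 59, homozygote 3 left 356 and 80, and wild type 3 left 467 and 83. In all, 282 of the 838 loci were called whichever library was left out, 244 higher and 38 lower.

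**Figure D1:**
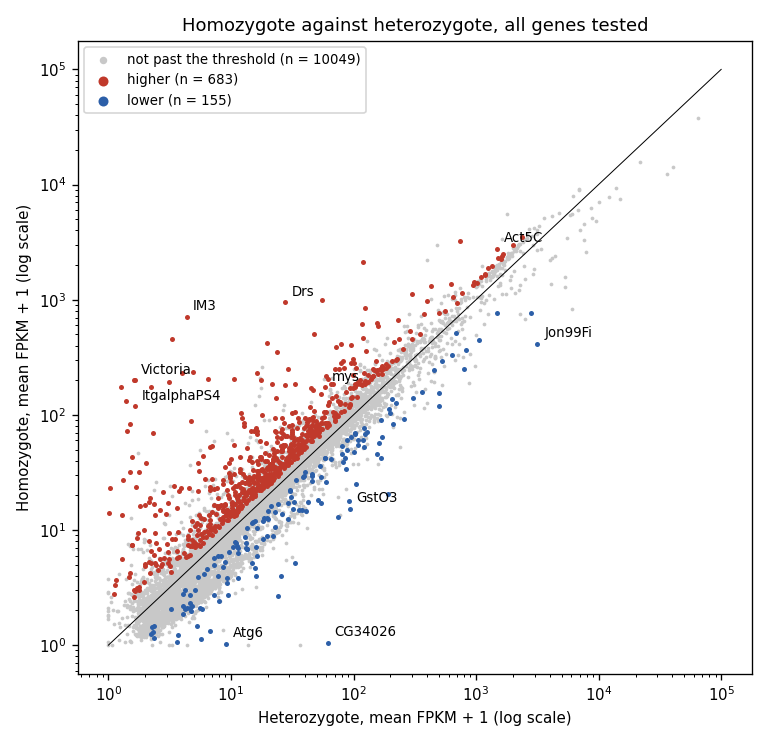
Mean FPKM + 1 of the 3 heterozygote libraries (horizontal, log scale) and of the 3 homozygote libraries (vertical, log scale) for the 10887 loci tested, with 683 loci called higher in red and 155 lower in blue at an adjusted p under 0.05. The line marks equal levels, and the called rises reach farther from it than the called falls, apart from CG34026.

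The steepest rises were in small secreted immune peptides. Bomanins and daisho peptides are short peptides that the fat body releases into the blood under the Toll pathway. In homozygotes 11 of the 12 genes tested were higher (6.27% over all loci), with a median log2 fold change of 5.64. IM3 (BomS3), with the largest rise of all loci, had FPKM of 4.21, 1.42 and 4.39 in heterozygotes and 607, 1046 and 464 in homozygotes (log2 fold change 7.35, SE 0.51, adjusted p = 0.00026). IM2 (BomS2) went from 1.91, 1.83 and 3.20 to 418, 662 and 278 (log2 fold change 7.03, SE 0.49, adjusted p = 0.00026). The daisho gene IM14 (Dso2) had 0.713, 1.23 and 0 and 279.8, 180.2 and 139 (log2 fold change 6.94, SE 0.42, adjusted p = 0.000157). For each of these 3 genes even the lowest homozygote stood far above the highest heterozygote, and the wild types were low as well, at 10.7, 2.84 and 4.03 for IM3, 8.91, 1.68 and 5.29 for IM2 and 2.22, 0.699 and 0.420 for IM14. Homozygote 2 had the highest level of IM2 and IM3, and homozygote 1 that of IM14. Of the 12 genes, 6, among them IM14, passed the expression filter only through the homozygotes. Their presence among the genes tested required a difference, so their count and p-values, that of IM14 included, are a description. The exception was CG43071, with 53.4, 35.6 and 35.5 in heterozygotes and 48.7, 17.3 and 30.7 in homozygotes (log2 fold change −0.44, adjusted p = 0.487). Every alternative tried kept 10 of the 11 rises, all but that of CG15068 (BomS6), with 31.0, 50.5 and 82.2 and 271, 2089 and 637 FPKM (log2 fold change 3.79, adjusted p = 0.0464), which needed all libraries but wild type 2 and homozygote 1 (adjusted p when left out up to 0.153).

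The Toll pathway lies upstream of these peptides. In its list 4 of 19 genes rose (6.27% over all loci) and none fell (median 0.14), with 2 rises without heterozygote 2 or 3. The calls were the ligand spz, the locus of its activating protease SPE, the receptor Toll and the transcription factor dorsal. The receptor gene Tl had FPKM of 13.1, 12.7 and 13.3 in heterozygotes and 25.6, 25.1 and 22.8 in homozygotes (log2 fold change 0.86, SE 0.08, adjusted p = 0.000921), and dl had 28.2, 23.3 and 21.9 and 43.9, 54.4 and 43.8 (log2 fold change 0.93, SE 0.13, adjusted p = 0.0063). Neither gene overlapped between the groups, and their wild types, at 12.7, 13.4 and 15 for Tl and 23.3, 27.5 and 22.9 for dl, were in or near the range of the heterozygotes. For spz the levels were 17.9, 15.1 and 16.2 and 51.0, 36.3 and 39.6 (log2 fold change 1.30, SE 0.23, adjusted p = 0.0138), and the call was lost without heterozygote 2 (adjusted p = 0.0704) and without heterozygote 3 (adjusted p = 0.0612). The SPE call, on a locus shared with CG18754 (adjusted p = 0.0206), needed homozygote 3 and each heterozygote, without which the adjusted p was 0.0521 to 0.092.

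The Imd pathway is the other antibacterial route of the fly. In its list, with the peptidoglycan recognition proteins, 4 of 18 genes rose (6.27% over all loci) and none fell (median 0.33). PGRP-LF, an inhibitor of Imd signalling at the receptor, had 6.85, 8.33 and 8.0 FPKM in heterozygotes and 15.6, 14.8 and 15.9 in homozygotes (log2 fold change 0.91, SE 0.10, adjusted p = 0.00198). PGRP-LA had 16.5, 15.1 and 15.1 and 30.6, 33.6 and 29.7 (log2 fold change 0.96, SE 0.11, adjusted p = 0.00246). Relish (Rel), the NF-kappaB factor of the pathway, had 43.8, 41.6 and 44.2 and 79.9, 156 and 112 (log2 fold change 1.35, SE 0.22, adjusted p = 0.00954). In all 3 genes the homozygotes stood apart from the heterozygotes, most widely spread for Rel, whose call was lost without heterozygote 2 (adjusted p = 0.0523). The fourth was the locus of the kinase gene ird5, which shares its values with CG10407 and CR45212 (log2 fold change 0.65, adjusted p = 0.00244). The classical antimicrobial peptides, the usual read-out of both pathways, had a median of 1.23. Of 15 genes 1 passed, as higher (6.67%), near the 6.27% over all loci. That gene, the antifungal peptide Drs, had 10.5, 21.4 and 47.3 in heterozygotes and 439, 1526 and 881 in homozygotes (log2 fold change 5.18, SE 1.25, adjusted p = 0.0465), but the wild types ranged across 534, 13.6 and 197. Leaving out wild type 3, any heterozygote or any homozygote raised the adjusted p to between 0.0665 and 0.155. The Imd-dependent peptide Dpt was as uneven, with 8.16, 32.2 and 10.2 in heterozygotes, 63.5, 673 and 40.1 in homozygotes and 216, 6.79 and 565 in wild types (log2 fold change 3.01, adjusted p = 0.278). Summed over the list, the classical peptides reached 175, 191 and 149 FPKM in heterozygotes, 857, 2634 and 1046 in homozygotes and 1349, 138 and 2463 in wild types, so wild types and homozygotes overlapped. The bomanin and daisho sums of 95.1, 92.6 and 130.1, 2258, 4633 and 1920.4 and 195, 95.8 and 282, in the same order, did not.

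Turandot genes, secreted stress peptides that respond to JAK/STAT signalling among other inputs, split by member. Of the 4 tested, 3 rose and TotA fell (6.27% and 1.42% over all loci). TotB had 0.401, 0.113 and 0.447 FPKM in heterozygotes and 5.43, 37.1 and 36.0 in homozygotes (log2 fold change 3.99, SE 0.63, adjusted p = 0.00923). Victoria (TotE) had 1.08, 0.686 and 0.113 and 16.3, 159.7 and 419 (log2 fold change 6.06, SE 1.00, adjusted p = 0.011), and the call was lost without heterozygote 2 (adjusted p = 0.0525) or heterozygote 3 (adjusted p = 0.0549). These are the 2 that passed the filter only through the homozygotes, where they are high, so their values are a description. For both genes homozygote 1 was the lowest of its group by several fold and still above every heterozygote. TotA, the most abundant member, ran the other way at 859.8, 951 and 1361 and 307, 391 and 629 (log2 fold change −1.29, SE 0.28, adjusted p = 0.0315). The TotA call was lost in 6 of the 9 settings that leave out 1 library (adjusted p from 0.0597 to 0.116), namely without wild type 3, each heterozygote, homozygote 1 and homozygote 2. In the JAK/STAT list 3 of 11 genes rose (6.27% over all loci), the cytokine upd3, the receptor dome and the phosphatase Ptp61F. No call was kept through all omissions of a library. The gene upd3 passed the filter only through the homozygotes, so its call is a description. The kinase gene hop (log2 fold change 0.00, adjusted p = 0.979) and the factor gene Stat92E (log2 fold change −0.08, adjusted p = 0.785) did not pass.

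**Figure D2:**
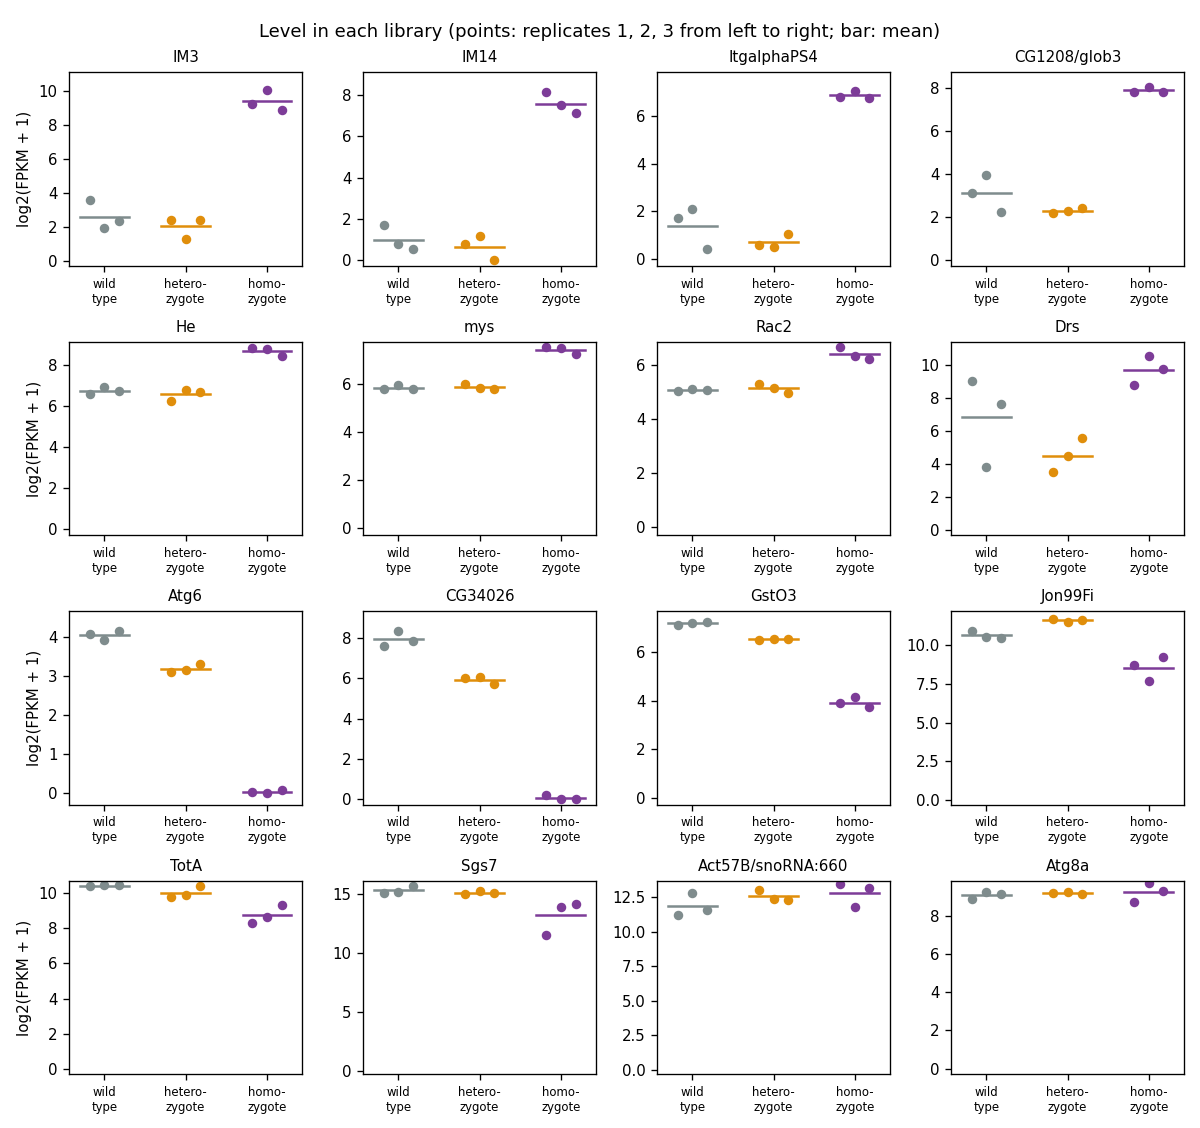
Level in each of the 9 libraries, as log2(FPKM + 1), for 16 genes, with the 3 replicates of a genotype from left to right and a bar at their mean. The panels from IM3 to Rac2 show homozygotes above all other libraries, Atg6, CG34026, GstO3, Jon99Fi, TotA and Sgs7 show them below, and Drs overlaps the wild types, while homozygotes lie on both sides of the heterozygotes for Atg8a and for the locus of Act57B.

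Most lamellocyte genes rose. All 11 markers tested were higher in every homozygote than in every heterozygote (17.5% over all loci) and 9 passed the test (6.27% over all loci), 7 of them in every alternative. The list had a median log2 fold change of 1.55 against −0.02 over all loci. The alpha integrin gene ItgalphaPS4 (ItgaPS4) had FPKM of 0.494, 0.417 and 1.08 in heterozygotes and 112, 132 and 109.7 in homozygotes (log2 fold change 6.18, SE 0.39, adjusted p = 0.000185). Its partner, the beta integrin gene mys, which other tissues also express, had 63.0, 55.8 and 55.3 and 186, 181 and 151 (log2 fold change 1.55, SE 0.11, adjusted p = 0.00026). The homozygotes lay close together for both genes and far above the wild types, at 2.26, 3.24 and 0.341 for ItgalphaPS4 and 55.0, 61.3 and 54.3 for mys. The locus shared by CG1208 and the globin gene glob3 had 3.57, 3.76 and 4.34 and 226, 259 and 224 (log2 fold change 5.60, SE 0.37, adjusted p = 0.000219). Among members chosen after their values were seen, atilla, the lamellocyte surface antigen, had 61.9, 59.1 and 62.5 and 217, 193 and 199 (log2 fold change 1.71, SE 0.20, adjusted p = 0.00223), and CG15347 had 145, 102 and 105 and 707, 597 and 550.4 (log2 fold change 2.40, SE 0.36, adjusted p = 0.0073). In heterozygotes the FPKM of these genes was far higher than that of ItgalphaPS4, which was low there. The members that did not pass were msn, at 36.5, 35.9 and 33.4 and 45.4, 63.9 and 46.4 (log2 fold change 0.53, adjusted p = 0.0709), and the locus of the lamellocyte prophenoloxidase PPO3, which it shares with l(2)k09913 (log2 fold change 0.53, adjusted p = 0.0506). Summed over the 11 loci, marker RNA was 737, 615 and 630.3 FPKM in heterozygotes and 2205, 2002 and 1865 in homozygotes. In whole larvae a larger number of cells of a type and more RNA per cell cannot be told apart.

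Plasmatocyte markers moved in part. Of 16 genes, 5 rose (6.27% over all loci) and none fell (median 0.41), led by genes for surface receptors. Log2 fold changes were above 0 in 9 of the 16 and ran from −1.88 to 2.13. Homozygotes lay apart from all heterozygotes as higher in 6 genes and as lower in 1 (17.5% and 15.6% over all loci). Without homozygote 2 there were 3 falls, and without wild type 2 there was 1. Hemese (He), carried by most haemocytes, had 73.4, 107 and 101 FPKM in heterozygotes and 444, 429 and 341 in homozygotes (log2 fold change 2.11, SE 0.17, adjusted p = 0.000497). The scavenger receptor gene Sr-CI had 12.6, 15.6 and 17.9 and 93.5, 64.1 and 57.5 (log2 fold change 2.13, SE 0.25, adjusted p = 0.00235), and the phagocytosis receptor gene NimC1 had 17.5, 24.6 and 25.6 and 53.9, 72.8 and 43.4 (log2 fold change 1.28, SE 0.20, adjusted p = 0.00942). None of these genes overlapped between the groups, and Sr-CIV rose as well (log2 fold change 1.99, adjusted p = 0.000349). Hemolectin (Hml), the usual plasmatocyte marker, was at 19.7, 25.8 and 29.4 and 37.1, 30.1 and 28.3 and did not pass (log2 fold change 0.35, adjusted p = 0.279). The summed list reached 1127, 927 and 1026 FPKM in heterozygotes and 8978, 1165 and 1812 in homozygotes, but 7896 FPKM in homozygote 1 came from Nplp2 alone, a gene at 7896, 114 and 935 in the 3 homozygotes (log2 fold change 1.00, adjusted p = 0.678). Crystal cell and melanization genes had 0 of 14 calls by limma and 2 at an unadjusted p under 0.05 (26.2% over all loci). The prophenoloxidase genes were at 159, 160.1 and 110.0 (PPO1) and 233, 221 and 149 (PPO2) in heterozygotes and 134, 135 and 102 and 233, 202 and 153 in homozygotes.

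Many genes of integrin adhesion also rose, in a list that shares 4 members with the lamellocyte markers (ItgalphaPS4, ItgalphaPS5, mys and rhea). In the integrin adhesion list 12 of 17 genes rose (6.27% over all loci) and none fell (median 0.59). Of these calls 7 were kept in every alternative, and the omissions of 1 library gave 7 to 12 calls. The fewest, 7, were left without heterozygote 2 and without heterozygote 3. Fit1, a kindlin that activates integrins, had 36.6, 31.8 and 35.2 FPKM in heterozygotes and 93.3, 103 and 83.5 in homozygotes (log2 fold change 1.41, SE 0.10, adjusted p = 0.00026). The second beta subunit gene Itgbetanu (Itgbn) had 10.5, 9.44 and 8.57 and 32.0, 29.9 and 26.4 (log2 fold change 1.53, SE 0.13, adjusted p = 0.000538). Both genes were at least 2-fold higher in each homozygote than in any heterozygote. By contrast the alpha subunit gene if stayed within reach of the heterozygotes at 23.5, 11.8 and 20.3 against 19.4, 14.2 and 15 (log2 fold change 0.14, adjusted p = 0.774), and Fit2, the paralog of Fit1, had 4.76, 4.83 and 4.88 and 6.83, 5.88 and 6.11 (log2 fold change 0.32, adjusted p = 0.0533).

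For the actin-branching Arp2/3 complex and its activators, 10 of 17 genes rose (6.27% over all loci) and none fell (median 0.40). The count was 2 without heterozygote 2 or 3, 4 without homozygote 3, and 6 without wild type 3, heterozygote 1 or homozygote 1. The calls kept in every alternative were Rac2 and Sra-1. Rac2, a small GTPase with a known role in haemocytes, had 38.7, 35.1 and 30.6 FPKM in heterozygotes and 101, 80.0 and 75.0 in homozygotes (log2 fold change 1.26, SE 0.13, adjusted p = 0.00129). Its paralog Rac1 had 66.2, 60.1 and 59.1 and 65.7, 55.7 and 64.8 (log2 fold change 0.00, adjusted p = 0.982), so the groups were separate for Rac2 and overlapped for Rac1. Sra-1, of the complex that links Rac to actin branching, had 21.6, 18.9 and 20.1 and 30.8, 35.6 and 31.3 (log2 fold change 0.66, SE 0.09, adjusted p = 0.00372). The complex subunits encoded by paralogs also differed, with Arpc3B at 53.8, 42.2 and 42.0 and 119, 85.7 and 78.6 (log2 fold change 1.01, SE 0.19, adjusted p = 0.0181) and Arpc3A at 33.8, 31.7 and 30.1 and 33.0, 33.5 and 31.5 (log2 fold change 0.03, adjusted p = 0.805). The paralogs were picked after their values were seen. The cytoplasmic actin gene Act5C, 1 of the 10 most abundant calls, had 1586, 1434 and 1408 and 3039, 2762 and 2535 (log2 fold change 0.91, SE 0.13, adjusted p = 0.00664), lost only under quantile normalization. Tetraspanins, membrane proteins that organize receptors, had 6 rises (6.27% over all loci) and no falls in 29 genes (median 0.32). Log2 fold changes were above 0 in 17 of the 29 and ran from −2.39 to 1.84. Homozygotes lay apart from all heterozygotes as higher in 10 genes and as lower in 4 (17.5% and 15.6% over all loci). Up to 2 falls were called when 1 library was left out. Of the rises, that of the locus of Tsp42Eb and Tsp42Ec was the highest (log2 fold change 1.84, SE 0.20, adjusted p = 0.00158). Without heterozygote 1 or homozygote 2 there were 3 tetraspanin rises, and without heterozygote 2 or 3 there were 2.

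Basement membrane genes and their proteases had 6 rises (6.27% over all loci) and no falls in 15 genes (median 0.58). Log2 fold changes were above 0 in 12 of the 15 and ran from −0.80 to 1.43. Quantile normalization and the replicate block each gave 1 fall. Without heterozygote 1 or 3 there were 2 rises, and without heterozygote 2 or homozygote 3 there were 3. The kept calls were the matrix metalloprotease gene Mmp1, at 24.9, 25.7 and 23.4 FPKM in heterozygotes and 62.9, 89.2 and 56.2 in homozygotes (log2 fold change 1.43, SE 0.19, adjusted p = 0.00446), and its inhibitor Timp, at 20.1, 14.3 and 15.1 and 39.9, 38.9 and 42.3 (log2 fold change 1.26, SE 0.18, adjusted p = 0.0065). Protease and inhibitor genes both stood above every heterozygote in each homozygote. The collagen IV genes, the bulk of that matrix, did not pass, with vkg at 42.9, 37.3 and 45.3 and 61.0, 37.1 and 41.4 (log2 fold change 0.12, adjusted p = 0.759). Mmp1 is also a target of JNK signalling, a stress pathway. In that list 5 of 15 genes rose (6.27% over all loci) and none fell (median 0.32), with 3 calls without heterozygote 3. The AP-1 factor genes kay (Fos) and Jra (Jun) had 47.1, 44.2 and 43.0 and 43.3, 44.7 and 46.9 in heterozygotes and 68.3, 79.0 and 69.0 and 71.9, 94.1 and 76.8 in homozygotes (log2 fold change 0.67, SE 0.09, adjusted p = 0.00334 for kay, and log2 fold change 0.83, SE 0.11, adjusted p = 0.00352 for Jra). Both calls were lost under quantile normalization only. The feedback phosphatase gene puc had 14.8, 17.2 and 15.2 and 24.0, 35.6 and 29.1 (log2 fold change 0.86, SE 0.14, adjusted p = 0.0111), a call lost without heterozygote 3 (adjusted p = 0.0553). In the cell death list 3 of 14 genes rose (6.27% over all loci), 1 of 14 without heterozygote 2. The call of the caspase gene dream (Strica), at 20.2, 19.0 and 19.0 and 28.6, 38.0 and 31.1 (log2 fold change 0.71, SE 0.11, adjusted p = 0.00773), held in every alternative.

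Several of the largest rises were in loci named only by CG or CR numbers. CG14610 had 1.06, 0.822 and 4.45 FPKM in heterozygotes and 266, 144 and 171 in homozygotes (log2 fold change 6.10, SE 0.56, adjusted p = 0.000797). The long noncoding RNA gene CR44948 had 0.800, 0.227 and 2.65 and 177, 164 and 178 (log2 fold change 6.44, SE 0.62, adjusted p = 0.000907). CG9928 had 2.35, 1.51 and 5.11 and 496, 80.7 and 117 (log2 fold change 5.50, SE 0.65, adjusted p = 0.00245). CR44948 was the most even of these in homozygotes, and CG9928 was highest in homozygote 1. The wild types were low as well, at 3.42, 3.52 and 0.470, 1.88, 5.51 and 0.150 and 1.88, 3.58 and 1.94 in that order, and all 3 calls held in every alternative.

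Among the falls, CG34026, a gene on the X chromosome at X:9533818-9534625, went from 64.0, 65.3 and 51.7 FPKM in heterozygotes to 0.134, 0 and 0 in homozygotes (log2 fold change −5.87, SE 0.18, adjusted p = 8.1e-06). The wild types were higher still at 198, 326 and 229, and the step from wild type to heterozygote also passed (log2 fold change −2.02, SE 0.18, adjusted p = 0.00628). GstO3, an omega class glutathione S-transferase, had 91.1, 92.2 and 93.9 and 13.8, 16.6 and 12.2 (log2 fold change −2.63, SE 0.11, adjusted p = 3.59e-05). The 3 groups of GstO3 were separate, with wild types at 140.0, 147 and 153, although the step to the heterozygote did not pass (log2 fold change −0.66, SE 0.11, adjusted p = 0.104). The ornithine aminotransferase gene Oat had 117, 109 and 87.9 and 27.8, 19.1 and 25.6 beside 220.5, 244 and 198 in wild types (log2 fold change −2.08, SE 0.17, adjusted p = 0.000459), and CG14567 had 15.5, 12.8 and 16.5 and 4.06, 2.39 and 2.54 beside 30.8, 34.6 and 32.6 (log2 fold change −2.01, SE 0.16, adjusted p = 0.000488). In these 4 genes the heterozygotes lay between the other genotypes, and the adjusted p for heterozygote against wild type was 0.0784 for Oat and 0.0722 for CG14567. GstO3, Oat and CG14567 lie on 3L, the other arm of the chromosome that carries Atg6. The part of variants on that chromosome in their falls was not tested.

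Other falls had heterozygotes at or above the wild types. The gut serine protease gene Jon99Fi, the most abundant of the calls kept in every alternative, had 3378, 2944 and 3191 FPKM in heterozygotes, 422, 206 and 608 in homozygotes and 1984, 1493 and 1412 in wild types (log2 fold change −3.07, SE 0.36, adjusted p = 0.00241). The mitochondrial acyl-CoA dehydrogenase gene CG12262 (Mcad), of fatty acid oxidation, had 379, 319 and 378, 158, 149.7 and 167 and 324, 278 and 313 (log2 fold change −1.17, SE 0.11, adjusted p = 0.000889). The odorant-binding protein gene Obp56e had 26.8, 22.4 and 24.1, 4.45, 0.888 and 3.67 and 12.4, 22.6 and 16.1 (log2 fold change −2.80, SE 0.39, adjusted p = 0.00502). Homozygotes were the lowest group for all 3 without overlap, and homozygote 2 was the lowest library for each. In their families, beside 6.27% of all loci higher and 1.42% lower, digestive enzymes had 2 rises and 2 falls in 45 genes (median −0.43). Odorant-binding proteins had 3 falls in 22 (median −0.12), and lipid storage and synthesis 2 falls in 21 (median −0.06). Omissions of 1 library gave 0 to 4 digestive rises, and left 1 digestive fall without any 1 heterozygote and 1 lipid fall without any 1 heterozygote, homozygote 1 or homozygote 3. Among glutathione S-transferases 4 of 33 rose and 2 fell. The rises were 7 without homozygote 2 and 2 without wild type 3, heterozygote 2 or 3, or homozygote 1 or 3, and 1 fall was left without any library but homozygotes 1 and 2. GstD2 went against GstO3, with 13.5, 10.3 and 10.3 in heterozygotes and 77.0, 79.5 and 122 in homozygotes (log2 fold change 2.90, SE 0.27, adjusted p = 0.000861). The amylase gene Amy-p rose in the digestive list, from 29.4, 25.6 and 25.1 to 161, 163 and 216 with wild types at 54.7, 171 and 44.4 (log2 fold change 2.70, SE 0.45, adjusted p = 0.0112), a call lost without heterozygote 2 (adjusted p = 0.0562) or heterozygote 3 (adjusted p = 0.0541). Cytochrome P450 enzymes had 4 rises and 2 falls in 66 genes (9.09% called) and cuticle proteins 3 and 3 in 55 (10.9%), beside 7.7% of all loci. None of these P450 and cuticle calls was kept through all omissions of a library.

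**Figure D3:**
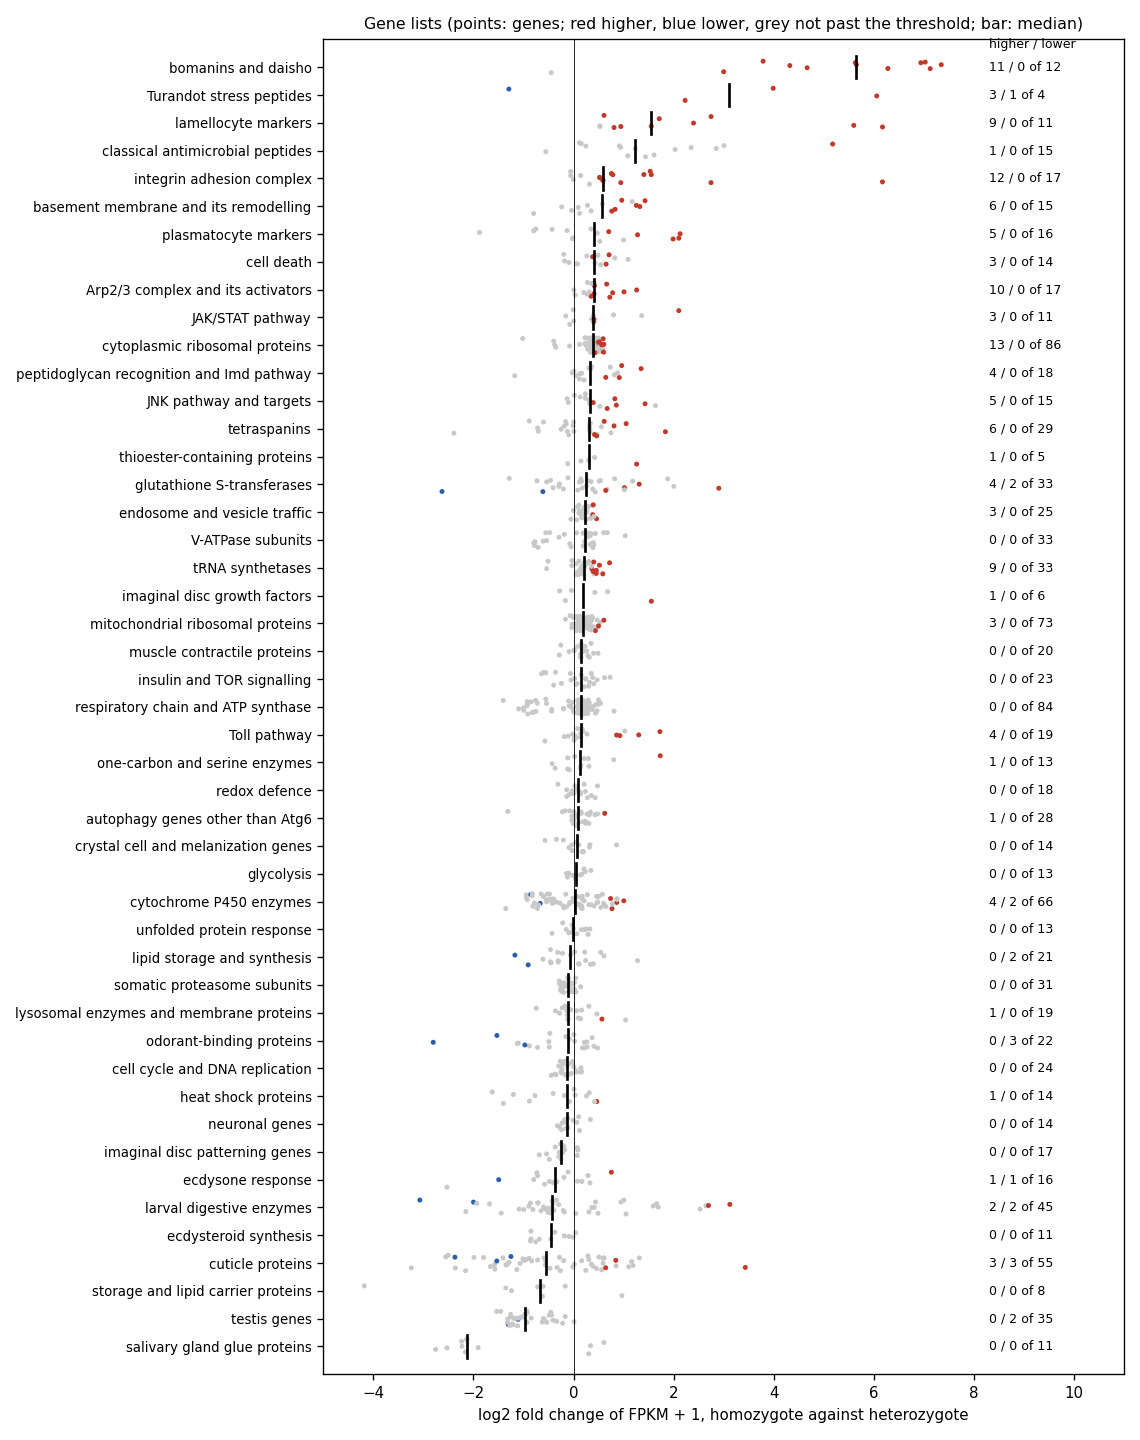
Log2 fold change of FPKM + 1, homozygote against heterozygote, for each tested gene of 47 lists (points, red called higher, blue called lower, grey not past the threshold) with the list median as a bar, ordered by that median. The numbers at the right give genes called higher and lower of those tested, from 11 and 0 of 12 for bomanins and daisho at the top to 0 and 0 of 11 for the glue proteins at the bottom.

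Of 28 autophagy genes other than Atg6, 1 passed the test (median 0.09), beside 7.7% of all loci. It was ref(2)P, the p62 adaptor that is normally degraded with autophagic cargo. Its FPKM was 151, 152 and 156 in heterozygotes and 211, 271 and 231 in homozygotes, above all wild types at 147, 124 and 129 (log2 fold change 0.62, SE 0.12, adjusted p = 0.0183). The groups did not overlap, but the call needed homozygote 3 and each heterozygote, without which the adjusted p was 0.0593 to 0.087. None of the partners of Atg6 in its complex passed. The locus CG30184/Pi3K59F, which holds the kinase gene, had 7.34, 7.65 and 8.89 in heterozygotes and 9.48, 12.6 and 11.2 in homozygotes (log2 fold change 0.43, adjusted p = 0.0912). The regulatory subunit gene ird1 (Vps15) had 8.06, 7.12 and 7.59 and 7.01, 10.6 and 8.43 (log2 fold change 0.16, adjusted p = 0.471), Atg14 had 17.0, 17.7 and 17.5 and 17.7, 24.3 and 19.9 (log2 fold change 0.22, adjusted p = 0.235), and Uvrag had 11.4, 11.2 and 10.9 and 13.7, 14.7 and 14.0 (log2 fold change 0.32, adjusted p = 0.0584). Homozygotes lay above all heterozygotes for Pi3K59F and Uvrag, began at the highest heterozygote for Atg14 and overlapped the heterozygotes for ird1.

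The homozygotes disagreed among themselves over part of that list. In 14 of 28 autophagy genes homozygote 1 was below and homozygote 2 above all 3 heterozygotes, which held for 1216 of the 10887 loci tested, and the reverse order occurred in 0 of 28 and 1254 of 10887. Atg8a, the ubiquitin-like protein that coats autophagosomes, had 591, 609 and 571 FPKM in heterozygotes and 422, 860.0 and 652 in homozygotes (log2 fold change 0.07, adjusted p = 0.883), and the starting kinase gene Atg1 had 11.9, 12 and 11.5 and 8.45, 20.8 and 11.7 (log2 fold change 0.10, adjusted p = 0.844). For both genes the heterozygotes were tight and the homozygotes fell on either side of them. Endosome and vesicle traffic genes had 3 rises in 25 (Rab11, Vps33B and Vps36, median 0.22) and lysosomal genes 1 in 19 (spin, median −0.11), beside 6.27% over all loci. V-ATPase subunits, the proton pump of lysosomes, had 0 in 33 by limma with 2 at an unadjusted p under 0.05 (26.2% over all loci). None of these calls was kept through all omissions of a library.

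The same division of the homozygotes ran through whole complexes and tissues. All 31 somatic proteasome subunits tested were below every heterozygote in homozygote 1 and above every heterozygote in homozygote 2, and 21 of the 31 were below in homozygote 3. Rpn6, a lid subunit picked as an example, had 130.1, 146 and 141 FPKM in heterozygotes and 86.7, 208 and 119 in homozygotes (log2 fold change −0.11, adjusted p = 0.835). Glycolysis ran in the opposite order, with 12 of 13 genes above the heterozygotes in homozygote 1 and below them in homozygote 2, as for Pgi at 365, 216 and 219 and 529.8, 178 and 379.9 (log2 fold change 0.35, adjusted p = 0.674). This order also held for 15 of 20 muscle contractile genes, 60 of 84 genes of the respiratory chain and ATP synthase and 29 of 73 mitochondrial ribosomal proteins. None of the proteasome, glycolysis, muscle and respiratory chain genes passed by limma. At an unadjusted p under 0.05 there were 0, 0, 0 and 3 in that order, beside 26.2% over all loci. Muscle medians per library, as log2 deviations from the mean of each gene over the 9 libraries, were 0.54, −0.06 and −0.05 in heterozygotes, 0.85, −0.54 and 0.58 in homozygotes and −0.94, 0.38 and −0.67 in wild types, so the wild types were spread as well. For lamellocyte markers the same measure was −0.33, −0.53 and −0.46 in heterozygotes and 1.16, 1.12 and 0.86 in homozygotes, with no such division.

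**Figure D4:**
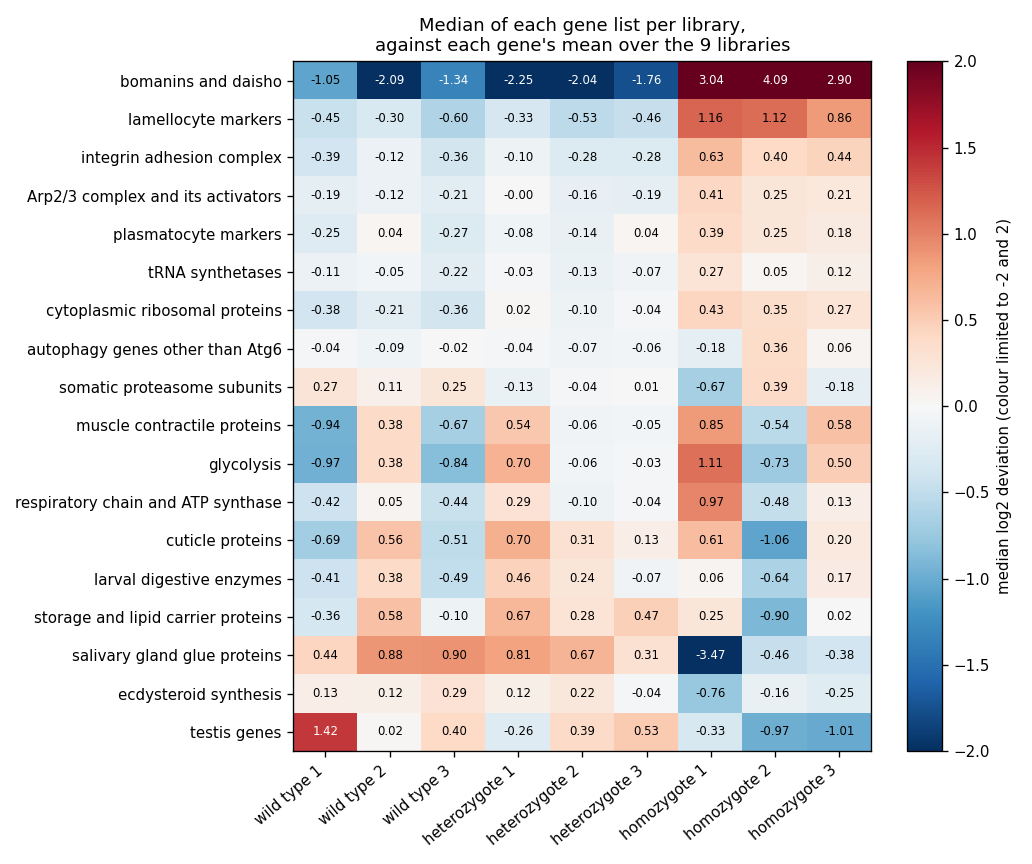
Median log2 deviation of 18 gene lists in each of the 9 libraries, each gene taken against its own mean over the 9 libraries (red higher, blue lower, colour limited to −2 and 2). Bomanins and lamellocyte markers are red in all 3 homozygotes, whereas proteasome, glycolysis and muscle differ in sign between homozygotes 1 and 2, and glue proteins are lowest in homozygote 1.

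Genes of protein synthesis had small differences, and the number that passed varied widely with the fit. Of 86 cytoplasmic ribosomal proteins 80 were higher in every homozygote than in every heterozygote (17.5% over all loci). As higher 13 passed (6.27% over all loci, median 0.39). The count of calls was 9 without wild type 2 and 0 to 4 without any other library. It was 41 in eBayes without trend, 27 with a filter of 5 FPKM, 2 with no filter, and 0 under quantile normalization, the replicate block and the fit of homozygotes and heterozygotes only. RpL15 had 1735, 1543 and 1686 FPKM in heterozygotes and 2435, 2711 and 2349 in homozygotes, with wild types at 1382, 1535 and 1432 (log2 fold change 0.59, SE 0.12, adjusted p = 0.0298). The 3 genotypes did not overlap for RpL15, with homozygotes highest, and its call needed wild type 3, homozygotes 2 and 3 and each heterozygote (adjusted p when left out up to 0.144). Aminoacyl-tRNA synthetases, which charge tRNAs with amino acids, had 9 rises (6.27% over all loci) and no falls in 33 genes (median 0.22). There were 2 rises without heterozygote 2, and 3 without heterozygote 3 or homozygote 3. The enzyme for tyrosine, Aats-tyr (TyrRS), had 52.8, 45.8 and 49.6 and 83.0, 83.0 and 80.0 (log2 fold change 0.72, SE 0.08, adjusted p = 0.00182), a rise kept in every alternative. Mitochondrial ribosomal proteins had 3 rises in 73 genes (4.11%, below the 6.27% over all loci, median 0.19). By limma 0 of 23 insulin and TOR signalling genes passed, with 9 at an unadjusted p under 0.05 (26.2% over all loci). That list had 4 rises without homozygote 1 and 1 fall without homozygote 2. Of 24 cell cycle genes 0 passed, with 4 at an unadjusted p under 0.05 and a median of −0.12. In the cell cycle list 13 genes were lower in every homozygote than in every heterozygote and 0 were higher (15.6% and 17.5% over all loci). In stress responses, beside 7.7% of all loci, 1 of 14 heat shock genes passed. Of 13 unfolded protein response genes 0 passed (3 at an unadjusted p under 0.05), and of 18 redox genes 0 (0 at an unadjusted p under 0.05).

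Several markers of larval age and tissue had lower values in homozygotes, few of which passed the test. The salivary glue genes, which are switched on before pupariation, had 0 of 11 calls by limma and a median of −2.14. Of the 11, 8 had an unadjusted p under 0.05 (26.2% over all loci). As many, 8, were lower in every homozygote than in every heterozygote (15.6% over all loci). Without homozygote 1, 4 glue genes passed as lower. Sgs7, with Sgs3 picked as examples, had 33680.0, 39750.0 and 34944 FPKM in heterozygotes and 3035, 15612 and 18740.0 in homozygotes (log2 fold change −1.91, adjusted p = 0.125). Sgs3 had 4817, 4042 and 3418 and 203, 1831 and 2094 (log2 fold change −2.14, adjusted p = 0.155). Homozygote 1 was the lowest library for both by a wide margin, and it was also the lowest for the ecdysteroid synthesis genes, which make the moulting hormone. These had 0 of 11 calls by limma, 7 at an unadjusted p under 0.05, a median of −0.45 and library medians of 0.12, 0.22 and −0.04 in heterozygotes and −0.76, −0.16 and −0.25 in homozygotes. Testis genes had 2 falls in 35 (nht and Taf12L, 1.42% over all loci, median −0.97), and 16 were lower without overlap (15.6% over all loci). Their library medians were −0.26, 0.39 and 0.53 in heterozygotes, −0.33, −0.97 and −1.01 in homozygotes and 1.42, 0.02 and 0.40 in wild types. The part of these tissue and stage markers in the other differences was not tested. Imaginal disc patterning genes had 0 of 17 calls by limma, a median of −0.25 and 2 falls without homozygote 2. Neuronal genes had 0 of 14 calls and a median of −0.13, and storage and lipid carrier proteins 0 of 8 and −0.67. At an unadjusted p under 0.05 there were 5, 1 and 3 genes in that order, beside 26.2% over all loci.

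The called genes lay on all large chromosome arms, with the highest shares lower on 3R and 3L, the arms of chromosome 3. On 3R, the arm of Atg6, 169 of 2684 loci tested were higher and 51 lower (6.30% and 1.90%), and within 1 Mb of Atg6 the counts were 21 and 6 of 240 (8.75% and 2.5%). On 3L, 119 of 2118 loci tested were higher and 34 lower (5.62% and 1.61%). The arms 2L, 2R and X had between 5.45 and 7.31% of their loci higher and between 0.896 and 1.39% lower. No test was run of these shares.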

How the data were processed

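Total RNA of whole larvae was made into strand-specific Illumina libraries, per the labels' protocols. The authors deposited FPKM values per locus and library. HISAT2 2.1.0, limma, the build dm6 and Cufflinks 2.2.1 are named in the submitters' processing notes, while annotation and strand setting were not given in the sources used here. The 50244 lines hold 15809 loci, each repeated with identical values, and 1 line per locus was kept; 818 loci carry several gene names whose values cannot be separated. Loci at 1 FPKM or more in at least 3 of 9 libraries were tested on log2(FPKM + 1), the pseudocount making changes of low genes come out small, with limma 3.58.1 (R 4.3.3; lmFit and eBayes with trend, the 3 genotypes fitted together) and Benjamini-Hochberg adjustment at 0.05. The steps were tested on simulated data, where 76% of 2-fold and 88% of 4-fold changes were called and 7.34% of calls were false. Changes were placed only on loci with a heterozygote mean of at least 5 FPKM, so recovery at lower loci was not tested. The simulation gave a locus the same SD in every genotype, whereas the real homozygotes were more widely spread than the heterozygotes. Figures were drawn with matplotlib in Python.

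Symbols were placed on the genome with Ensembl release 115 (BDGP6). The 47 gene lists, the members and the naming rule were chosen with earlier results of these data known. Named were Atg6 and genes within 20 kb; the 15 largest rises and falls among calls of at least 5 FPKM without overlap; the 10 most abundant calls; and up to 4 genes per list and direction with the smallest adjusted p. A choice of these is printed, and list members outside the rule, paralogs and unchanged genes were chosen after their values were seen. Alternatives changed the pseudocount, filter, scaling, model, threshold, replicate block and libraries, 1 at a time. A gene whose call was kept in every alternative was called in all 20 alternative fits; the stricter threshold and the 2-fold minimum were applied to counts only.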

Additional observations from a re-analysis of the deposited data

How the results depend on the processing

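No called locus changed sign under any alternative, and the Atg6 change stayed between −3.20 and −3.10 (log2) whichever library was left out. With homozygotes near 0 its size is set by the pseudocount: it was −6.03 with a pseudocount of 0.1 and −1.39 with 5. Counts of calls moved more. Over the omissions of 1 library the higher loci ran from 257 to 635 and the lower from 44 to 198 (683 and 155 as reported). For list genes in either direction the range was 51 to 141 (143 as reported, 125 higher and 18 lower). Without heterozygotes 1, 2 and 3 in turn, 72, 46 and 50 list genes were higher and 10, 5 and 5 lower; without homozygote 3, 63 were higher, and without wild type 3, 11 were lower. The range for arm 3R, higher and lower, was 67 to 161 and 12 to 59 (169 and 51). Quantile normalization gave 449 higher loci and 81 higher list genes. A fit of only homozygotes and heterozygotes gave 440 higher loci, 95 list genes (81 higher), and 112 higher and 28 lower loci on 3R. An adjusted p under 0.01 left 267 higher and 39 lower loci, and a 2-fold minimum 232 and 71. Other pseudocounts, filters and scaling, and an eBayes fit without trend or robust, kept these counts within 1.5 times. Of 126 named genes past the threshold, 55 kept their call in every omission of 1 library and 50 in every alternative; the causes of lost calls were not tested.

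Replicate numbers are shared by the genotypes in the labels, but nothing says that a number marks a shared origin. Deviations of same-numbered heterozygotes and homozygotes correlated at 0.13, 0.33 and −0.32 for numbers 1, 2 and 3. Heterozygote 1 correlated best with homozygote 3 (0.40), and heterozygote 2 with homozygote 2. The deviations sum to 0 within a genotype, so these values depend on each other and cannot settle whether a number marks a shared origin. With the number as a replicate block, 371 higher and 66 lower loci, 74 list genes (65 higher and 9 lower), and 99 higher and 20 lower loci on 3R were called. Depth is unknown, and 3 libraries a genotype limit small changes and changes that differ between homozygotes.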
